A study of Mus musculus with 8 samples.

Results

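The 8 genes described here make, protect, relay or oppose the vasodilator signal of the endothelium. They are Nos3, Ddah2 and Arg2 of nitric oxide synthesis, Gucy1a1 and Gucy1b1 of its cGMP-forming receptor, and Edn1, Ece1 and Ednrb of the endothelin system. They were chosen by gene symbol and are 8 of the 30406 genes whose identifiers are shared by all 8 deposited libraries. Each of the 8 symbols belonged to 1 identifier, with the same symbol in both runs. The libraries are single-cell RNA-seq of sorted, YFP-marked cells from the mesentery and the epididymal (adipose) fat pads of male ROSA26-eYFP+/+ Cdh5-CreERT2+ mice. In all groups, Cre driven by the endothelial Cdh5 promoter was switched on by feeding tamoxifen for 2 weeks, starting at the age of 6 weeks. Starting at 8 weeks the mice ate normal chow (5.8% fat) or high-fat diet (60% fat) for 12 to 13 weeks. Each library pooled tissue from 6 mice, and the experiment was done in 2 runs, A and B, so that each of the 4 groups (2 tissues by 2 diets) has n = 2 pools. Tissue was dissected and digested in Actinomycin D, a blocker of transcription.

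Endothelial nitric oxide synthase turns arginine into nitric oxide, which diffuses to soluble guanylate cyclase, a dimer of an alpha and a beta subunit, and cGMP made there relaxes smooth muscle. Asymmetric dimethylarginine inhibits the synthase and is cleared by DDAH enzymes, while arginases compete for its substrate. Endothelin-1 is cut from its precursor by endothelin converting enzyme. It constricts vessels through type A receptors on smooth muscle, while type B receptors on endothelium clear it and promote nitric oxide release. In lymphatic vessels nitric oxide is known to tune the pumping of the collectors.

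The libraries held 3461360 to 6714473 UMIs (molecules counted once by their barcode) in run A and 18829960 to 36779289 in run B. Of 27944 barcodes, 23123 were used, and 18057 of these fell into endothelial clusters. Markers named 2848 of them arterial-like, 5668 capillary-like, 3050 venous-like and 1941 lymphatic-like. A further 4372 stayed without a class name. The label "endothelial cells" did not hold for all barcodes: mural-like, adipocyte-like, macrophage-like, fibroblast-like and lymphocyte-like clusters were also present. Between 0 and 10 barcodes were shared by any pair of libraries. Run A libraries lost 22.8% to 30.8% of barcodes to the mitochondrial limit, against 5.4% to 9.0% in run B. Levels are given as CPM (counts-per-million), the normalised count of a gene, its UMIs relative to all UMIs summed over the cells of 1 class in 1 library. Class names were rebuilt from fixed markers with the 8 genes kept out of the clustering. Differences between classes are given as descriptions, since the classes share libraries.

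By median among the 4 named endothelial classes, Nos3 and Edn1 were highest in arterial-like and venous-like cells, Ednrb in capillary-like cells, Ddah2 in arterial-like cells, and Ece1 and both cyclase subunits in lymphatic-like cells. Venous-like cells of the mesentery carried more Gucy1a1 than those of adipose tissue, and mesenteric lymphatic-like cells on chow carried more of both cyclase subunits than those on high-fat diet or in adipose tissue. Ednrb ran the other way in arterial-like, venous-like and lymphatic-like cells, low in the mesentery on chow. In capillary-like cells on chow the runs disagreed, with 185 and 149 CPM in mesentery and 106 and 397 CPM in adipose tissue (runs A and B). Arg2 was close to undetected. Outside these classes, mural-like cells had higher medians of Gucy1a1 (621 CPM over 6 libraries) and Gucy1b1 (287 CPM). In run B the mural-like levels were 540 to 830 CPM and 265 to 436 CPM. In the adipose libraries of run A they were 23.2 and 25.1 CPM, and 4.22 and 3.14 CPM. Lymphatic-like cells held more in those libraries (75.6 and 79.0 CPM, and 87.3 and 142 CPM). Fibroblast-like cells had a higher median of Ddah2 (285 CPM over 8 libraries).

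**Figure D1:**
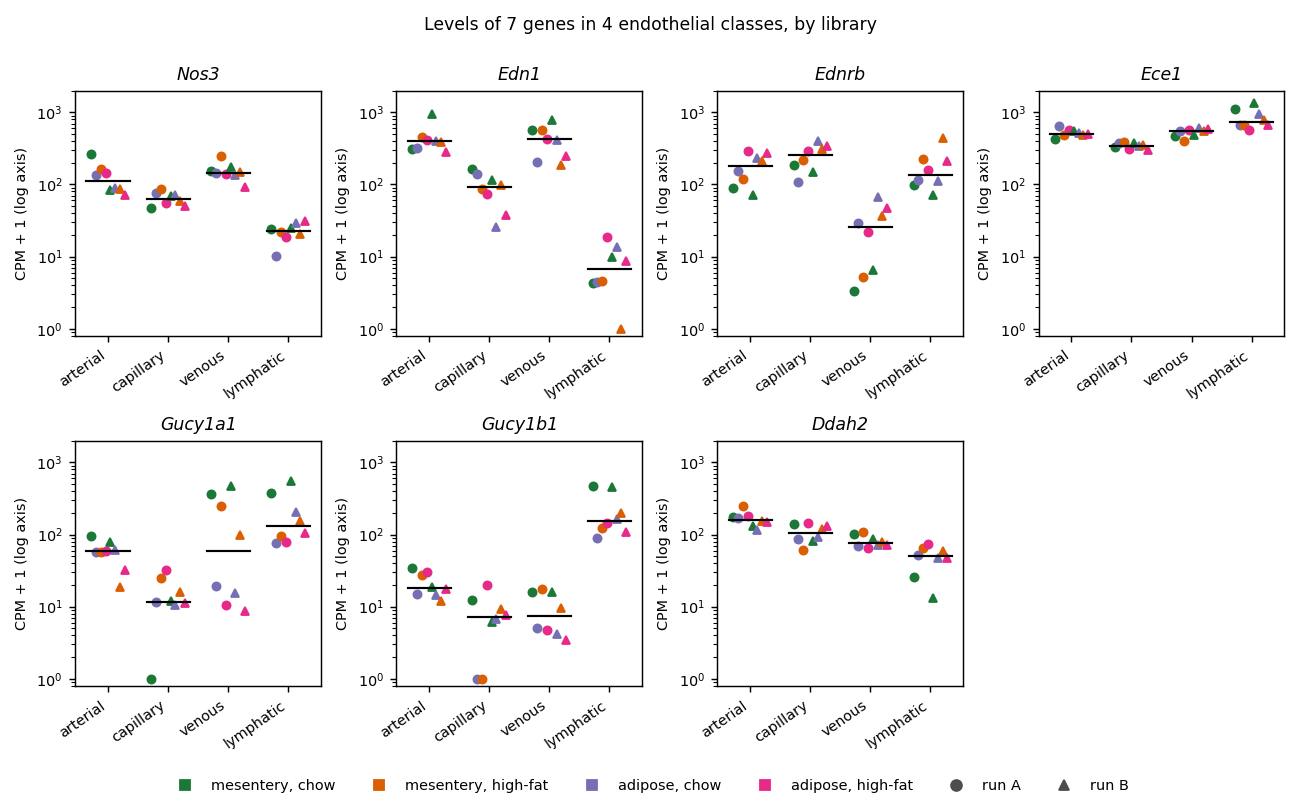
Level (CPM + 1, log axis) of 7 of the 8 genes in 4 endothelial classes, 1 point per library (colour for group, shape for run) with the median of 8 libraries as a bar. Arg2 is left out because it was nearly undetected. Edn1 spans from 0 CPM in a lymphatic-like library to 935 CPM in an arterial-like one, and the venous-like points of Gucy1a1 separate by tissue.

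Group differences were tested on UMI sums per library by the quasi-likelihood method of edgeR. In the fit without a term for the run, none of 170 tests of the members passed an adjusted p of 0.05. Of all genes, 0.0125% passed there for diet in the mesentery in lymphatic-like cells, and 0% in the other comparisons and classes. The smallest adjusted p was 0.218, and 29 tests had an unadjusted p under 0.05. DESeq2 without that term called 2 tests for diet in mesentery, 4 for tissue on chow and 1 for tissue on high-fat diet. It called 0 for diet in adipose tissue and 0 for the interaction. The share of all genes that passed in that DESeq2 fit was not counted. The 4 libraries of a run were made side by side and deviated together from their group means, so the run was also fitted as a block, and 20 of the 170 tests then passed, 10 upward and 10 downward. For the members, the verbs rose and fell are used below for those 20 alone. The filtered edgeR fit without the block made none of these calls, and without a filter on low counts it made 5 for diet in mesentery, 4 for tissue on chow and 1 for tissue on high-fat diet. For the unfiltered fit, too, the share of all genes was not counted.

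With the block, the calls for high-fat diet against chow in the mesentery covered 5 of 6 tested members in lymphatic-like cells, where 3.98% of all genes tested passed. They covered 2 of 7 in arterial-like cells (0.663% of genes), 1 of 7 in venous-like cells (0.134%), 1 of 7 in all endothelial cells together (0.0825%) and 0 of 7 in capillary-like cells (0.849%). For the same diets in adipose tissue no member passed in any class. The shares of all genes there were 0.359% in arterial-like, 1.33% in capillary-like, 0.105% in venous-like, 0.237% in lymphatic-like and 0.0375% in all endothelial cells. Between mesentery and adipose tissue on chow, 3 of 6 passed in lymphatic-like cells (2.75% of genes) and 2 of 7 in venous-like cells (1.74%). There, 1 of 7 passed in each of arterial-like cells (0.663%), capillary-like cells (0.296%) and the pooled endothelium (0.412%). On high-fat diet the tissues differed for 1 of 7 members in venous-like cells (0.163% of genes) and for none in arterial-like (0.109%), capillary-like (0.162%), lymphatic-like (0.424%) or all endothelial cells (0%). The interaction of tissue and diet passed for 2 of 6 in lymphatic-like cells (0.436%). It passed for none in arterial-like (0.0217%), capillary-like (0.00954%), venous-like (0%) or all endothelial cells (0%). The members had been chosen with earlier results of these data known, and the 2 tissue comparisons and 2 diet comparisons share libraries with each other.

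**Figure D2:**
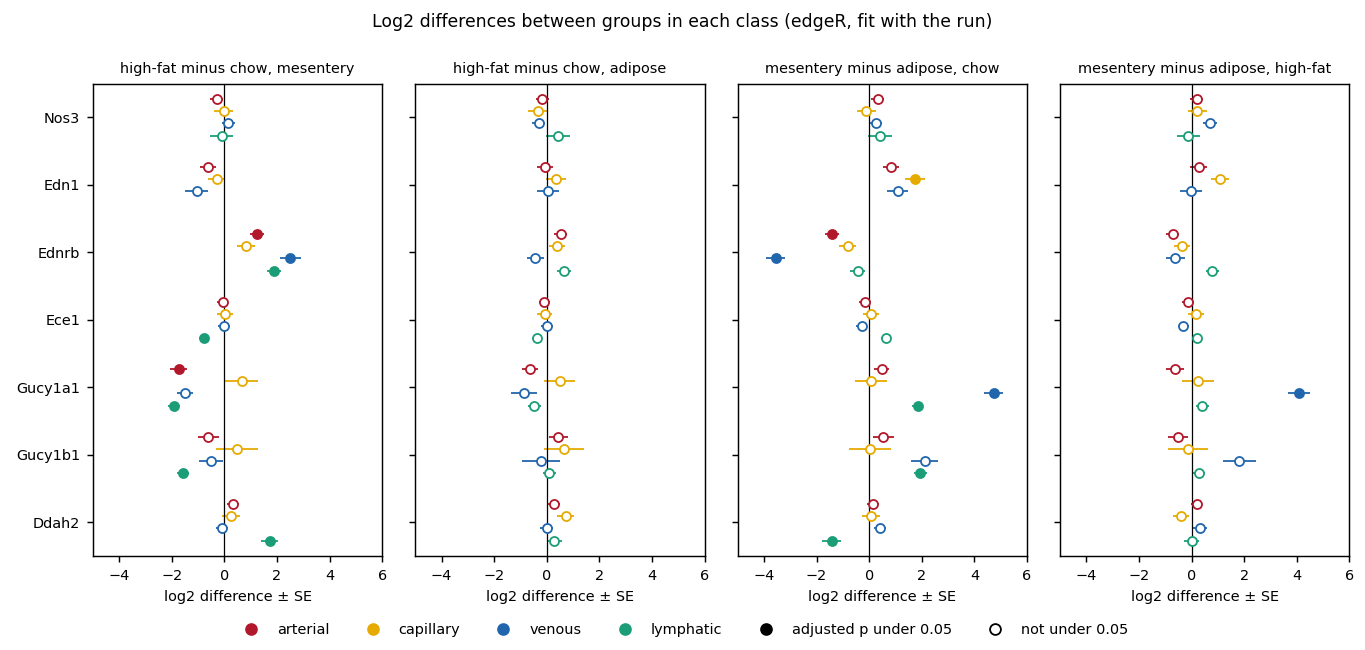
Log2 difference ± SE (x axis) of 7 genes in 4 endothelial classes, from the edgeR fit with the run as a block, for high-fat diet against chow in each tissue and for mesentery against adipose tissue on each diet. Filled points have an adjusted p under 0.05 over all genes of the class; the farthest is Gucy1a1 in venous-like cells at 4.73 for mesentery against adipose tissue on chow.

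Nos3 (ENSMUSG00000028978, chr5:24364810-24384474, plus strand, GRCm38) encodes endothelial nitric oxide synthase. Its median level over 8 libraries was 144 CPM in venous-like, 112 in arterial-like, 62.6 in capillary-like and 21.8 in lymphatic-like cells. Venous-like exceeded arterial-like cells in 6 of 8 libraries, so that this step did not hold beyond the spread, while arterial-like exceeded capillary-like and capillary-like exceeded lymphatic-like cells in 8 of 8. In all endothelial cells the mesentery on chow held 140 and 99.8 CPM (runs A and B), and the mesentery on high-fat diet 76.2 and 78.3 CPM. Adipose tissue held 78.2 and 78.7 CPM on chow and 74.5 and 58.2 CPM on high-fat diet. Both chow mesentery pools lay above the other 6 libraries. The log2 difference between diets in the mesentery was -0.63 ± 0.19 (SE) with an edgeR adjusted p of 0.318 in the block fit. Within the 4 classes it lay between -0.29 in arterial-like and 0.15 in venous-like cells, and no class passed.

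Ddah2 (ENSMUSG00000007039, chr17:35059035-35062095, plus strand), a dimethylarginine hydrolase, was highest of the 4 classes in arterial-like cells, with a median of 161 CPM, above capillary-like cells (104 CPM) in 8 of 8 libraries. Venous-like cells followed at 74.7 CPM and lymphatic-like cells at 48.9 CPM. Capillary-like cells lay above venous-like ones in 6 of 8 libraries and venous-like above lymphatic-like in 7 of 8. In lymphatic-like cells of the mesentery Ddah2 stood at 24.5 and 12.0 CPM on chow (15 and 8 UMIs). With 70 and 29 UMIs, it stood at 63.4 and 57.6 CPM on high-fat diet. In adipose tissue it stood at 51.2 and 46.6 CPM on chow and at 72.2 and 45.8 CPM on high-fat diet. The mesentery on chow was thus below all other libraries. Ddah2 rose on high-fat diet in the mesentery by 1.72 ± 0.34 on the log2 scale (edgeR adjusted p 0.00128 with the block, 0.41 without). On chow it was lower in mesentery than in adipose tissue by a log2 difference of -1.43 ± 0.35 (edgeR adjusted p 0.0151 with the block, 0.717 without). The diet call was lost without mesentery on chow of run B (1.48, adjusted p 0.0685). The tissue call was lost without any 1 of the 4 chow libraries, with log2 differences from -1.80 to -1.19 and adjusted p from 0.0865 to 0.227.

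Arg2 (ENSMUSG00000021125, chr12:79130777-79156301, plus strand) encodes the mitochondrial arginase. It gave 11 UMIs among 83398400 in 18057 endothelial cells, in 5 of 8 libraries and at most 5 in 1 library. It passed the filter on low counts in no class and was tested in none.

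Gucy1a1 (ENSMUSG00000033910, chr3:82092427-82145789, minus strand) and Gucy1b1 (ENSMUSG00000028005, chr3:82032006-82074689, minus strand) encode the alpha-1 and beta-1 subunits of soluble guanylate cyclase and are neighbours on chromosome 3, 17737 bases apart. Since the results turn on where the 2 genes were seen together and where not, the 250 bases before the Gucy1b1 start are shown 5′ to 3′ (RefSeq, GRCm38.p6, chr3:82074712-82074961, minus strand), with the motifs found in capitals.
Gucy1b1 promoter: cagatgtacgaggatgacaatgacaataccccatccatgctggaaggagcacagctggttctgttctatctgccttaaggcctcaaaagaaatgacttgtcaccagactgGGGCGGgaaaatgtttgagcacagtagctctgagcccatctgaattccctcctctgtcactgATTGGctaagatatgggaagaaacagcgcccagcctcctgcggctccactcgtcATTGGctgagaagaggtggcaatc
The capitals mark a GC box (GGGCGG) 140 bases before the start and CCAAT boxes (CCAAT on the other strand, read here as ATTGG) 78 and 24 bases before it. On either strand, a GC box was present in 32.7% and a CCAAT box in 33.8% of the 32851 promoter windows of that length in the table. Gucy1a1 had 2 starts in the table. The window of the first (chr3:82145651-82145900) held a GC box 238 bases before its start and no CCAAT box. Part of that window falls within the gene span given above, which comes from another annotation. The bases after the start matched a transcript for the second start and not for the first. Motifs in the second window (chr3:82145074-82145323) were not examined. Neither the Gucy1b1 window nor the first Gucy1a1 window held AP-1 letters (TGANTCA, in 6.75% of windows) or KLF letters (CCACCC, in 28.1%). Nor did they hold GATA letters (AGATAAG, in 2.74%) or TATAAA, the TATA box, in 12.4% of windows. A match is a description of letters and not a site.

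Gucy1b1 was highest of the 4 classes in lymphatic-like cells in 8 of 8 libraries, with a median of 151 CPM against 17.2 in arterial-like, 6.34 in venous-like and 6.19 in capillary-like cells. Arterial-like exceeded venous-like cells in 8 of 8 libraries, and venous-like and capillary-like cells were not separated, with venous-like higher in 5 of 8. Gucy1a1 had medians of 129 CPM in lymphatic-like, 58.4 in venous-like, 57.4 in arterial-like and 10.8 in capillary-like cells. Venous-like exceeded arterial-like cells in 4 of 8 libraries, since the venous-like level spread from 7.74 to 476 CPM with the tissue. For reference, T cell-like clusters, in which the cyclase is not a defining gene, held 0 to 25.6 CPM of Gucy1a1 and 0 CPM of Gucy1b1 over 7 libraries.

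In venous-like cells of the mesentery, Gucy1a1 stood at 370.0 and 476 CPM on chow (955 and 1626 UMIs) and at 249 and 98.6 CPM on high-fat diet. In adipose tissue it stood at 18.2 and 14.5 CPM on chow and at 9.49 and 7.74 CPM on high-fat diet. The 4 mesenteric and 4 adipose libraries did not overlap. On chow, Gucy1a1 was higher in mesentery by a log2 difference of 4.73 ± 0.37 (edgeR adjusted p 9.34e-06 with the block and 0.218 without; DESeq2 without the block, 1.55e-10). On high-fat diet the tissue difference was 4.07 ± 0.42 (edgeR adjusted p 0.000352 with the block, 0.561 without). With the block both edgeR calls held without any 1 of the 8 libraries. Between diets in the mesentery the difference was -1.52 ± 0.30 and did not pass (edgeR adjusted p 0.0776 with the block).

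The venous-like class was made of different clusters in the tissues. A cluster led in number by mesenteric cells held 84.5%, 72.6%, 62.7% and 23.2% of the venous-like cells of the mesentery (chow A, chow B, high-fat A, high-fat B), and 4.26% to 9.59% of those of adipose tissue. In the 1 venous-like cluster that both tissues filled, taken alone, Gucy1a1 on chow was higher in mesentery by 4.46 ± 0.71 (edgeR adjusted p 0.00207 with the block). Its levels there on chow were 329 and 50.4 CPM in mesentery (104 and 50 UMIs) and 6.24 and 3.08 CPM in adipose tissue (1 and 4 UMIs). On high-fat diet the mesenteric levels were 322 CPM in run A and 9.61 CPM in run B. The size of the difference thus rests on few adipose UMIs, and the runs disagreed widely. The difference on high-fat diet in that cluster was 2.64 ± 0.72, with an edgeR adjusted p of 0.533. Summed levels of the 11 mural markers in venous-like cells were 385 to 653 CPM in mesentery and 555 to 1295 CPM in adipose tissue, ranges that overlapped. The 7 fibroblast markers summed to 18.8 to 70.4 CPM in mesentery and to 42.1 to 456 CPM in adipose tissue.

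Gucy1b1 in venous-like cells was low beside Gucy1a1 and higher in mesentery, with no overlap between the tissues. It stood at 15.1 and 15.2 CPM in mesentery on chow (39 and 52 UMIs) and 16.6 and 8.64 CPM on high-fat diet (4 and 17 UMIs). In the 4 adipose libraries it stood at 2.42 to 4.04 CPM (2 to 8 UMIs), so the separation of the tissues rests on few UMIs. The tissue difference on chow was 2.11 ± 0.51 and did not pass (edgeR adjusted p 0.0515 with the block). Gucy1a1 made 96.1% (95% exact interval 94.7 to 97.2) and 96.9% (96.0 to 97.7) of the UMIs of both genes in venous-like cells of chow mesentery. In lymphatic-like cells of the same libraries it made 44.5% (40.2 to 48.9) and 54.8% (51.0 to 58.7). Over libraries with at least 10 UMIs of the pair, the share ran from 76.2% to 96.9% in venous-like cells (7 libraries) and from 35.8% to 55.7% in lymphatic-like cells (8 libraries), with no overlap. It ran from 61.6% to 81.7% in arterial-like cells. In the larger mural-like cluster, smooth muscle being the textbook site of the cyclase, the share was 67.3% (65.9 to 68.7) over all libraries. The intervals cover counting error only, and the share is compared between classes, not read as the ratio of the 2 transcripts, because 3′ capture can differ between genes.

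**Figure D3:**
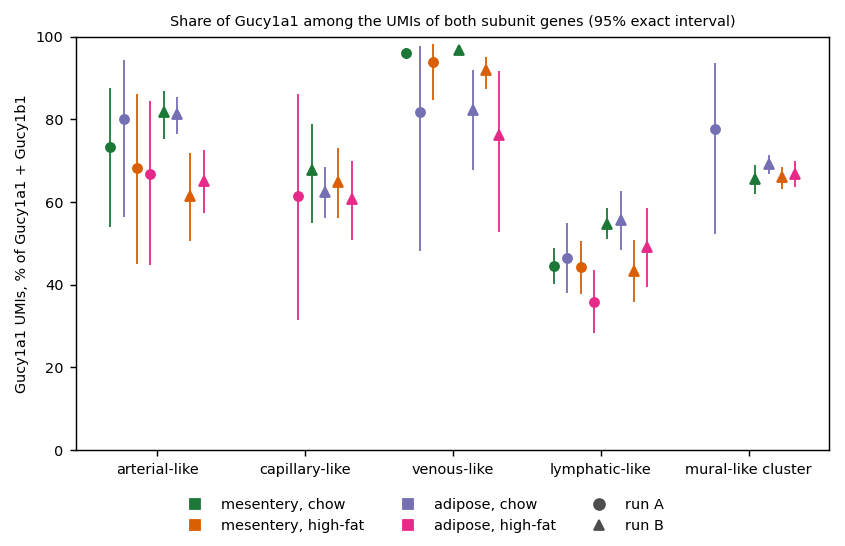
Share of Gucy1a1 (%) among the UMIs of Gucy1a1 and Gucy1b1 in each library, with 95% exact binomial intervals, for 4 endothelial classes and the larger mural-like cluster; libraries with under 10 UMIs of the pair are left out. Venous-like cells of the mesentery sit between 91.9% and 96.9%, and lymphatic-like cells between 35.8% and 55.7%.

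In lymphatic-like cells both subunit genes were high in the mesentery on chow and lower in the other groups. Gucy1a1 stood at 378 and 552 CPM in mesentery on chow, 96.1 and 153 CPM in mesentery on high-fat diet, 75.6 and 202 CPM in adipose tissue on chow and 79.0 and 105 CPM in adipose tissue on high-fat diet. Gucy1b1 stood at 471 and 455 CPM, 121 and 200 CPM, 87.3 and 161 CPM, and 142 and 109 CPM in the same order. For both genes the chow mesentery pools lay above the 6 others.

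Gucy1a1 fell on high-fat diet in mesenteric lymphatic-like cells by 1.91 ± 0.22 on the log2 scale (edgeR adjusted p 2.01e-07 with the block, 0.394 without). Gucy1b1 fell there by 1.58 ± 0.23 (1.60e-05 with the block and 0.394 without, edgeR adjusted). On chow, mesentery exceeded adipose tissue by 1.84 ± 0.22 for Gucy1a1 (edgeR adjusted p 6.79e-07 with the block, 0.511 without) and by 1.95 ± 0.24 for Gucy1b1 (7.75e-07 and 0.229). These 4 calls held with the block without any 1 of the 8 libraries, with edgeR adjusted p of at most 0.00991. In adipose tissue the diet differences were -0.48 ± 0.25 for Gucy1a1 and 0.10 ± 0.26 for Gucy1b1, with edgeR adjusted p of 0.94 and 0.999 with the block. On high-fat diet the tissue differences were 0.40 ± 0.25 and 0.27 ± 0.25, with edgeR adjusted p of 0.915 and 0.985.

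The diet difference in the mesentery was larger than that in adipose tissue by an interaction of -1.44 ± 0.33 for Gucy1a1 and -1.68 ± 0.34 for Gucy1b1, with edgeR adjusted p of 0.0352 and 0.0178 with the block and of 1 for both without. The Gucy1a1 interaction did not pass without any 1 of the 4 run A libraries or of the 2 mesentery libraries of run B (log2 values -1.54 to -1.08, edgeR adjusted p 0.0933 to 0.402). The Gucy1b1 interaction did not pass without any 1 of the 4 run A libraries (-1.48 to -1.23, adjusted p 0.156 to 0.248).

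Other values moved with the lymphatic-like result. The summed level of 7 lymphatic markers was 16915 and 20267 CPM in mesentery on chow and 10388 to 16671 CPM in the other 6 libraries. The 10 endothelial markers summed to 4885 and 4416 CPM in mesentery on chow and to 5072 to 6913 CPM in the other 6. Adipocyte markers summed to 183 and 156 CPM in the chow libraries of run B and to 0.906 to 17.9 CPM in the other 6. The summed mural markers were 132 and 114 CPM in mesentery on chow and 53.5 to 100.1 CPM elsewhere, and 2 of the 11, Cspg4 and Higd1b, were at 0 in all 8 libraries. The part of these markers in the result was not tested, nor was their part in the Ednrb, Ddah2 and Ece1 differences of the same sums. A further endothelial cluster of 615 cells, led by Spp1, Nts and Fibin with 6 lymphatic markers raised, stayed without a name. There Gucy1a1 stood at 67.1 and 73.3 CPM in mesentery on chow and at 10.9 to 29.5 CPM in the other 6 libraries, and Gucy1b1 at 14.6 to 47.2 CPM over all 8.

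In arterial-like cells Gucy1a1 stood at 93.1 and 78.5 CPM in mesentery on chow, 56.7 and 17.8 CPM in mesentery on high-fat diet, 56.9 and 59.5 CPM in adipose tissue on chow and 57.9 and 31.5 CPM in adipose tissue on high-fat diet. It fell on high-fat diet in the mesentery by 1.74 ± 0.33 (edgeR adjusted p 0.00702 with the block, 1 without). The call was lost without mesentery on high-fat diet of run B (-0.80, adjusted p 0.959) and without mesentery on chow of run B (-1.40, 0.521). Of the 2 arterial-like clusters, 1 held most of the Gucy1a1, at 35.1 to 162 CPM over 8 libraries against 0 to 15.3 CPM in the other. In the mesentery its share of the arterial-like cells was 54.8% on chow and 33.8% on high-fat diet in run B, and 50.0% and 55.9% in run A. Within that cluster alone the diet difference was -1.78 ± 0.34 (edgeR adjusted p 0.00454 with the block). Gucy1b1 in arterial-like cells stood at 11.1 to 33.8 CPM, with a diet difference in the mesentery of -0.61 ± 0.41 and an edgeR adjusted p of 1. In all endothelial cells together, which mixes classes present in different shares, Gucy1a1 fell on high-fat diet in the mesentery by 1.92 ± 0.18 (edgeR adjusted p 0.041 with the block). Leaving out 1 library ended that call in 5 of 8 cases, with adjusted p from 0.0743 to 0.203. The 5 were the 4 adipose libraries and mesentery on high-fat diet of run B. On chow it was higher in mesentery by 2.49 ± 0.19 (edgeR adjusted p 0.00906), a call lost without either adipose library on chow or adipose on high-fat diet of run B (0.0638 to 0.357).

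**Figure D4:**
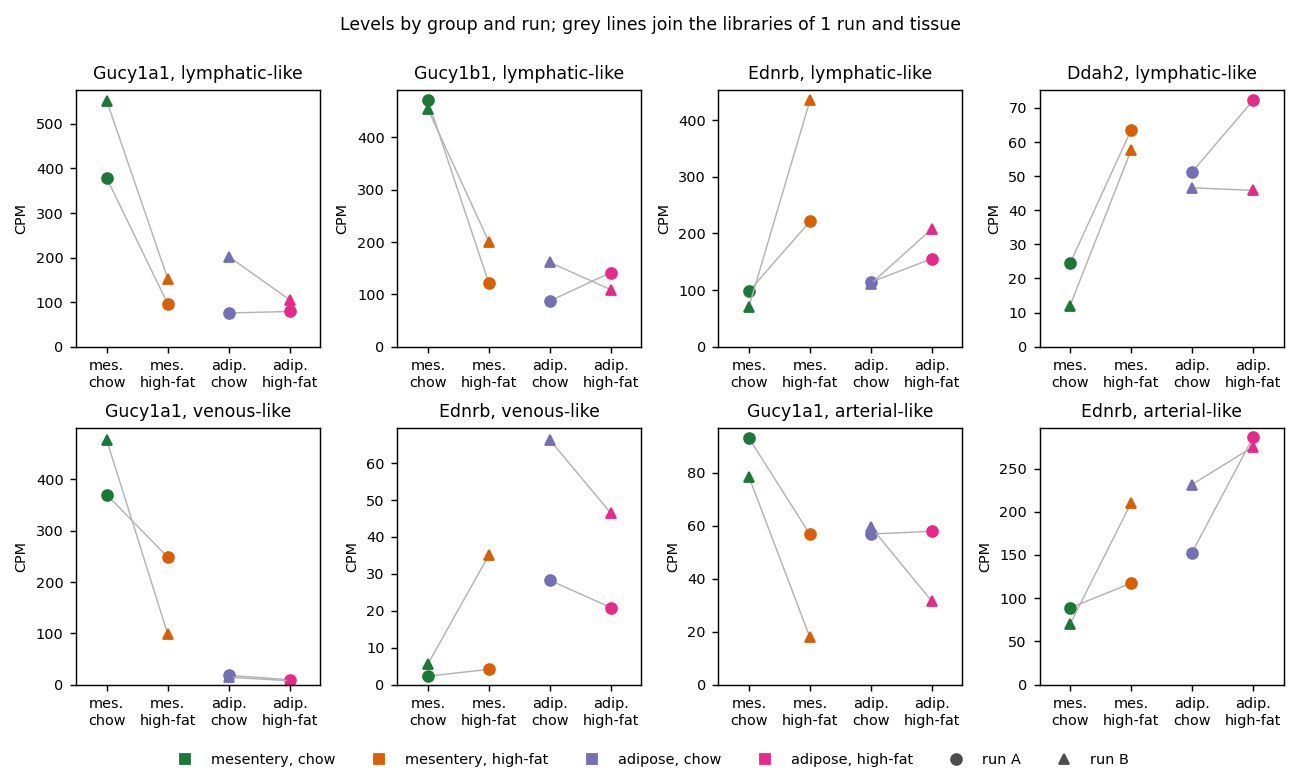
Level in CPM (y axis from 0) of the genes on which the group comparisons turn, in each of the 4 groups, 1 point per pool (shape for run); grey lines join the pools of 1 run and tissue. Gucy1a1 and Gucy1b1 in lymphatic-like cells are highest in both chow mesentery pools (378 and 552 CPM, 471 and 455 CPM), where Ddah2 is lowest.

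Edn1 (ENSMUSG00000021367, chr13:42301476-42307990, plus strand) encodes the precursor of endothelin-1, and Ednrb (ENSMUSG00000022122, chr14:103814625-103844402, minus strand) its type B receptor. Ligand and receptor are shown side by side because their medians ran in opposite order over the blood vessel classes. The 250 bases before each start follow, 5′ to 3′ (RefSeq, GRCm38.p6; chr13:42301226-42301475, plus strand, and chr14:103843702-103843951, minus strand), with CCAAT boxes in capitals.
Edn1 promoter: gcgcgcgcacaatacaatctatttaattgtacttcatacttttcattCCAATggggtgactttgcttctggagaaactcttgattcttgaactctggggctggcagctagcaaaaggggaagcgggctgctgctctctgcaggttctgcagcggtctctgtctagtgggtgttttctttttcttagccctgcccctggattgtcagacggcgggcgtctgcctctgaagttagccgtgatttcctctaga
Ednrb promoter: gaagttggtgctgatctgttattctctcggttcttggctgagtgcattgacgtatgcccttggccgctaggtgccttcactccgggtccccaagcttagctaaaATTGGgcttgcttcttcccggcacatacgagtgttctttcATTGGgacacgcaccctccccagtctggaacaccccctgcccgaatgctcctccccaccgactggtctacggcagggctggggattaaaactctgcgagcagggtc
The Edn1 window held 1 CCAAT box, 203 bases before the start, and the Ednrb window 2 on the other strand, 146 and 106 bases before it. None of the AP-1, GATA, KLF, GC box and TATA letters searched above was in either window. The RefSeq start of Ednrb lies inside the gene span given above, which comes from GENCODE M21. The whole Ednrb window therefore falls within that span, and the start differs between the annotations.

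Edn1 was highest of the 4 classes in venous-like (median 421 CPM) and arterial-like cells (396 CPM), which were not separated (4 of 8 libraries each way). Capillary-like cells held 91.4 CPM, below arterial-like cells in 8 of 8 libraries, and lymphatic-like cells 5.63 CPM, below capillary-like cells in 8 of 8. Edn1 had 39 UMIs over the 8 lymphatic-like sums and was not tested there. T cell-like clusters held 0 to 32.0 CPM over 7 libraries, a range that covers the lymphatic-like levels of 0 to 17.7 CPM.

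In capillary-like cells Edn1 stood at 162 and 115 CPM in mesentery on chow (14 and 461 UMIs) and at 138 and 24.5 CPM in adipose tissue on chow (13 and 394 UMIs). On high-fat diet it stood at 84.6 and 98.1 CPM in mesentery and at 73.4 and 37.0 CPM in adipose tissue. The tissues separated in run B and not in run A, where each sum held at most 19 UMIs. The log2 difference between tissues on chow was 1.75 ± 0.37 (edgeR adjusted p 0.00283 with the block, 1 without). It was lost without adipose on chow of run B (0.27, adjusted p 0.966), without mesentery on chow of run B (1.31, 0.732) and without mesentery on high-fat diet of run B (1.69, 0.35). The class was made of 2 clusters, and 1 of them held 68.9% of the capillary-like cells in mesentery on chow and 87.2% in adipose tissue on chow in run B, and 38.9% and 18.6% in run A. In the other cluster, taken alone, the difference was 1.62 ± 0.39 and the call was lost (adjusted p 0.0813). In the fit without the block it changed sign without adipose on chow of run B (-0.034). In venous-like cells the tissue difference on chow was 1.09 ± 0.40, and in arterial-like cells 0.82 ± 0.30, with edgeR adjusted p of 0.325 and 0.414 with the block. Between diets in the mesentery, Edn1 differences within the blood vessel classes lay between -1.06 in venous-like and -0.30 in capillary-like cells, with edgeR adjusted p of 0.594 and 1. With all endothelial cells together also counted, they reached -1.32, and the smallest edgeR adjusted p was 0.12 with the block. The pooled levels were 362 and 396 CPM in mesentery on chow and 127 and 176 CPM on high-fat diet. In adipose tissue they were 152 and 135 CPM on chow and 188 and 122 CPM on high-fat diet.

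Ece1 (ENSMUSG00000057530, chr4:137862237-137965229, plus strand), the converting enzyme, was the most even of the 7 detected genes over classes. Its medians were 725 CPM in lymphatic-like, 557 in venous-like, 501 in arterial-like and 344 in capillary-like cells. Lymphatic-like exceeded venous-like cells in 7 of 8 libraries and arterial-like exceeded capillary-like cells in 8 of 8, while venous-like and arterial-like cells were not separated (5 of 8). In lymphatic-like cells Ece1 stood at 1126 and 1341 CPM in mesentery on chow and at 659 and 774 CPM on high-fat diet. In adipose tissue it stood at 676 and 935 CPM on chow and at 571 and 668 CPM on high-fat diet. It fell on high-fat diet in the mesentery by 0.79 ± 0.19 (edgeR adjusted p 0.0103 with the block, 0.821 without). Leaving out any 1 of the 4 mesentery libraries ended the call, with log2 differences from -0.83 to -0.72 and adjusted p from 0.068 to 0.233. In the other 3 classes all Ece1 differences between diets or tissues lay between -0.32 and 0.17 on the log2 scale, and none passed.

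By median, Ednrb was highest of the 4 classes in capillary-like cells (256 CPM), above arterial-like cells (181 CPM) in 7 of 8 libraries. Capillary-like cells exceeded all other named classes in 5 of 8. In both libraries of mesentery on high-fat diet lymphatic-like cells were higher (221 and 435 against 218 and 309 CPM). Arterial-like and lymphatic-like cells (135 CPM) were not separated, with 4 of 8 libraries each way. Venous-like cells held 24.6 CPM, below lymphatic-like cells in 8 of 8. Ednrb was above these medians in the cluster led by Spp1, Nts and Fibin, with 365 to 1020 CPM over 8 libraries.

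In lymphatic-like cells Ednrb stood at 97.8 and 70.5 CPM in mesentery on chow, 221 and 435 CPM in mesentery on high-fat diet, 114 and 111 CPM in adipose tissue on chow and 155 and 208 CPM in adipose tissue on high-fat diet. It rose on high-fat diet in the mesentery by 1.89 ± 0.25 (edgeR adjusted p 4.06e-06 with the block, 0.252 without), and the call held with the block without any 1 of the 8 libraries. In adipose tissue the diet difference was 0.66 ± 0.25, and the edgeR adjusted p was 0.64 in the block fit. The difference between the 2 diet effects was 1.23 ± 0.36 (edgeR adjusted p 0.181), so a difference in response between the tissues was not shown.

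In venous-like cells Ednrb stood at 2.32 and 5.57 CPM in mesentery on chow (6 and 19 UMIs), 4.14 and 35.1 CPM in mesentery on high-fat diet (1 and 69 UMIs), 28.3 and 66.3 CPM in adipose tissue on chow and 20.9 and 46.4 CPM in adipose tissue on high-fat diet. On chow it was lower in mesentery by a log2 difference of -3.55 ± 0.37 (edgeR adjusted p 0.000131 with the block, 0.492 without), a call that held with the block without any 1 library. In the venous-like cluster that both tissues filled, taken alone, the difference was -2.23 ± 0.48 (adjusted p 0.049). It rose on high-fat diet in the mesentery by 2.50 ± 0.40 (edgeR adjusted p 0.027 with the block, 1 without). That diet call was lost when single libraries were left out. Without mesentery on high-fat diet of run B the difference was 0.75 (adjusted p 0.971). It was also lost without mesentery on chow of run B (2.41, 0.162), adipose on chow of run A (2.45, 0.0922) or adipose on chow of run B (2.47, 0.0732), and within the shared cluster alone (1.70, 0.413). Capillary markers in venous-like cells summed to 172 and 988 CPM in mesentery on chow, 311 and 2355 CPM in mesentery on high-fat diet and 410.0 to 2656 CPM in adipose tissue, and in the mesentery were higher on high-fat diet in both runs. Their part in the result was not tested.

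In arterial-like cells Ednrb stood at 88.8 and 69.9 CPM in mesentery on chow and 117 and 210.0 CPM in mesentery on high-fat diet, against 153 and 232 CPM on chow and 286 and 275 CPM (high-fat diet) in adipose tissue. The chow mesentery pools were the lowest 2 of 8. Ednrb rose on high-fat diet in the mesentery by 1.23 ± 0.27 (edgeR adjusted p 0.0242 with the block, 1 without). On chow it was lower in mesentery by -1.43 ± 0.27 (edgeR adjusted p 0.00577 with the block, 1 without). The diet call was lost without mesentery on chow of run B (0.70, adjusted p 0.78) or mesentery on high-fat diet of run B (0.69, 0.959), and the tissue call without mesentery on chow of run B (-0.90, 0.539) or adipose on chow of run B (-1.16, 0.267). The 2 arterial-like clusters differed: taken alone with the block, 1 gave diet and tissue differences of 4.15 ± 0.54 and -3.98 ± 0.54 (adjusted p 3.06e-05 and 0.000125) and the other 0.82 ± 0.30 and -1.02 ± 0.29 (0.817 and 0.2). The first held Ednrb near the floor in mesentery on chow, at 6.60 and 3.40 CPM on sums of 151472 and 882602 UMIs. In mesentery on high-fat diet it held 45.5 and 81.9 CPM, and in adipose tissue on chow 41.1 and 72.0 CPM. The other held 129 to 586 CPM over 8 libraries. Capillary markers in arterial-like cells summed to 601 to 1277 CPM in run A and to 3365 to 6097 CPM in run B, lowest in mesentery on chow in each run, and their part was not tested. In capillary-like cells the diet difference in the mesentery was 0.84 ± 0.34 and the tissue difference on chow -0.82 ± 0.33, with edgeR adjusted p of 0.687 and 1.

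A cluster of 433 endothelial cells led by Cytl1, Klk10, Mgp and Eln, with 9 arterial markers raised, stayed without a class name because a fibroblast marker was among its leading genes. Over the 6 libraries with enough cells it held medians of 894 CPM of Edn1 and 307 CPM of Nos3, beside 188 CPM of Gucy1a1 and 2.13 CPM of Ednrb. Of these cells, 104 and 222 came from mesentery on chow and 3 to 26 from each other library. When they were counted as arterial-like, the member calls for diet in the mesentery went from 2 to 4, with Nos3 and Gucy1b1 added, and those for tissue on chow from 1 to 3. How many of all genes passed with these cells added was not counted. With them, Ednrb differed between diets in the mesentery by 1.96 ± 0.27 and Gucy1a1 by -1.85 ± 0.35 (edgeR adjusted p 0.000381 and 0.00541 with the block).

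Of the other genes of the pathways, 47 of 48 listed were found and 40 could be tested in all endothelial cells. With the block, 11 of 730 tests over 5 classes and 5 comparisons passed, 5 upward and 6 downward, which is 1.51% of the tests, against 0 without it. Over all genes, weighted to the same classes and comparisons, 0.512% passed. The median log2 difference of the list lay between -0.16 and 0.18 over the 25 class comparisons, and that of all genes between -0.04 and 0.03. On NO synthesis and its control 5 of 420 tests passed (1.19%, beside 0.54% of all genes), all upward. Nostrin, an adaptor that moves the synthase off the membrane, was higher in mesentery than in adipose tissue on chow in capillary-like (1.55 ± 0.37, edgeR adjusted p 0.0237), in arterial-like (2.07 ± 0.46, 0.0251) and in pooled endothelial cells (1.58 ± 0.22, 0.0449). In lymphatic-like cells Ddah1, the other dimethylarginine hydrolase, was higher in mesentery than in adipose tissue on chow (1.61 ± 0.43, 0.0288). There Gchfr, which restrains synthesis of the cofactor tetrahydrobiopterin, rose on high-fat diet in the mesentery (2.14 ± 0.58, 0.0282). Its level went from 3.26 and 6.00 CPM on chow to 22.7 and 19.8 CPM on high-fat diet. The highest of this role in endothelial cells was Hsp90ab1, a chaperone, with a median of 2021 CPM.

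On cGMP synthesis, breakdown and action 5 of 265 tests passed (1.89%, beside 0.475% of all genes), all downward. Prkg1, the cGMP-dependent kinase, stood at 12.7 and 13.9 CPM in arterial-like cells of chow mesentery and at 0 and 0.673 CPM on high-fat diet. The fall was 4.34 ± 0.91 on the log2 scale (edgeR adjusted p 0.0161 with the block). In the mesentery of run A, the arterial-like sums held 236378 (chow) and 264388 (high-fat diet) UMIs of all genes. The Prkg1 levels of that run thus rest on few UMIs. Both high-fat levels lie near the floor, so the size of the fall is uncertain. Npr3, the clearance receptor of natriuretic peptides, was lower in mesentery than in adipose tissue on chow in arterial-like cells (-1.13 ± 0.27, 0.0437). It also passed in venous-like cells (edgeR adjusted p 0.0484), where it had 37 UMIs in mesentery and 116 in adipose tissue on chow in run B, and 1 and 0 UMIs in run A, so that only run B showed the direction. Npr1, the guanylate cyclase receptor of those peptides and the highest of this role in endothelial cells (median 124 CPM), was lower in mesentery on chow in lymphatic-like cells (-0.95 ± 0.27, 0.0483). Pde3b, a cGMP-inhibited phosphodiesterase, fell on high-fat diet in adipose capillary-like cells by 3.88 ± 1.02 (0.0191). It had 12.7 CPM in adipose tissue on chow and 0.780 CPM on high-fat diet in run B, and 0 CPM in the run A sums. Adipocyte markers in the capillary-like sums of run B were 5049 CPM in adipose tissue on chow and 93.1 CPM on high-fat diet. In that run 1 capillary-like cluster held 87.2% of the class in chow-fed adipose tissue and 5.83% in the high-fat group. The part of either was not tested.

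On the endothelin list, 1 of 45 tests passed (2.22%, beside 0.462% of all genes). Mme, a peptidase that can degrade endothelin, was lower in mesentery than in adipose tissue on chow in venous-like cells by -4.37 ± 0.46 (edgeR adjusted p 0.000131 with the block). It stood at 1.94 and 2.93 CPM in mesentery and 56.6 and 48.2 CPM in adipose tissue. Fibroblast markers in the same sums were 34.5 and 24.3 CPM in mesentery and 456 and 222 CPM in adipose tissue. A venous-like cluster that held 59.7% and 43.0% of these adipose cells held 0.353% and 0.539% of the mesenteric ones. The part of either in the Mme and Npr3 results was not tested. Furin, a proprotein convertase, was the highest of this list in endothelial cells at a median of 47.1 CPM.

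The genes whose level was most like that of a member were taken by log2 level (pseudocount 1 CPM), less the gene's mean in each library, over 68 class-by-library sums of 12 classes, among 9227 genes. Gucy1a1 and Gucy1b1 were each the most like the other, with a Pearson r of 0.809. Nos3 was most like Sncg (0.896), Acer2 and Sox7, Edn1 most like Clec14a (0.874), Hoxb9 and Mecom, and Ednrb most like Ushbp1 (0.836), Gpihbp1 and Parvb. Ece1 was most like Mall (0.919), Tie1 and Cracr2b, and Ddah2 most like Cd81 (0.922), Slc12a4 and Fam114a1. After its partner, Gucy1a1 was most like Enpp5 and Rhoj, and Gucy1b1 most like Gm14964 and Ift43. The sums share libraries and cells, and the coefficients are descriptions of the order of classes with no test.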

How the data were processed

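UMI counts per gene and cell were deposited by the authors as raw matrices, with no normalization, per the file headers. Run A was written by software version 3.0.2 and run B by 5.0.0, per the file headers. The submitters' processing notes name the mm10 build and Seurat 4.3.0. For the aligner and annotation nothing is given in the sources used here. Genes were matched between runs by identifier (30406 shared), and gene positions come from GENCODE M21 (GRCm38, the same build).

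Cells needed at least 500 UMIs, 300 genes and at most 10% mitochondrial counts. The highest Scrublet doublet scores removed 847 cells at a rate of 0.008 per 1000 barcodes, since the automatic limit found 57. Cells were clustered (scanpy 1.11.5, leidenalg 0.10.2, 2000 variable genes without the members and pathway genes, 30 components corrected for run by a Harmony-type step, 20 neighbours, resolution 1). Clusters were named by fixed marker lists of endothelial, arterial, capillary, venous, lymphatic, proliferating, mural, fibroblast, macrophage, neutrophil, T cell, B cell, adipocyte, mesothelial, glial and red cell genes. A name needed at least 3 markers raised 1.5-fold. Counts were summed per library and class (at least 20 cells).

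edgeR 4.0.16 (R 4.3.3; TMM, filterByExpr, quasi-likelihood test, Benjamini-Hochberg over all genes of the class) was fitted to 8 libraries with 1 mean per group. DESeq2 1.42.0, limma 3.58.1, the replicate block, other filters, left-out libraries and other cell filters were alternatives. The edgeR fits with and without the block were tested on simulated counts for 1 comparison, diet in mesentery in arterial-like cells. The other comparisons and steps, among them clustering and class naming, were not tested in that way. The run letter pairs the libraries because the labels say the whole experiment was repeated. Deviations from group means correlated within runs at r 0.278 to 0.797 over 6 pairs in each class. Where the run is confounded with software and depth, these cannot be told apart. With 2 pools per group, p-values of the fit without the block measure the spread between pools. Those of the fit with the block measure the spread left after the shift shared by a run is taken out.

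The members are always named. Pathway genes are named where they passed the test or were highest of their role. For likeness, the 3 nearest genes with a mean of at least 10 CPM are named. Members and lists were chosen with earlier results of these data known. Promoter windows matched 6 of 8 members.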

Additional observations from a re-analysis of the deposited data

Results flagged for a closer look

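In lymphatic-like cells the response to high-fat diet differed between the tissues for both cyclase subunits in the edgeR fit with the run as a block. The interaction was -1.44 ± 0.33 (SE, log2 scale, adjusted p 0.0352) for Gucy1a1 and -1.68 ± 0.34 (adjusted p 0.0178) for Gucy1b1. In mesentery, both runs had less of each gene on high-fat diet than on chow. In adipose tissue the 2 runs moved in opposite directions for each gene, from 75.6 to 79.0 and from 202 to 105 CPM for Gucy1a1, and from 87.3 to 142 and from 161 to 109 CPM for Gucy1b1. With n = 2 pools per group, neither interaction passed without the block (adjusted p of 1 for both).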

How the results depend on the processing

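Without the replicate block the member calls were 0 in all 5 comparisons under edgeR with the filter on low counts, and stayed 0 with RLE factors, limma-voom, doublets kept, a 20% mitochondrial limit, finer clusters, uncorrected runs and each library left out. Diet in mesentery gave 9 calls with the replicate block, 2 with DESeq2, 8 with DESeq2 and the block, 7 with limma-voom and the block and 5 with edgeR without the block and with no filter on low counts. Tissue on chow gave 8, 4, 9, 8 and 4 in that order, and tissue on high-fat diet 1 under each. The interaction gave 2 with the block under edgeR, DESeq2 and limma-voom. Diet in adipose tissue gave 0 throughout. Shares of all genes were counted only for the filtered edgeR fits with and without the block, and for none of the other alternatives.

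With the replicate block, leaving out 1 library moved the calls from 4 to 12 for diet in mesentery, 4 to 11 for tissue on chow, 1 to 2 between tissues on high-fat diet, and from 0 to 2 for the interaction. The lowest counts came without mesentery on chow or on high-fat diet of run B (diet in mesentery), adipose on chow of run B (tissue on chow) and adipose on chow of run A (interaction). No filter with the block gave 14 calls for tissue on chow, 4 for the interaction and 2 between tissues on high-fat diet, with more genes tested, and uncorrected runs gave 0 for the interaction (the cause was not tested). The alternatives with the block were chosen in part after seeing the data.

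Of 332 values of the 20 called tests under alternatives with the block, all kept their direction and 269 stayed past the threshold. Those past it were 120 of 160 with 1 library left out, 13 of 20 with uncorrected runs and 13 of 19 with DESeq2. The 20 were picked because they passed in the block fit, and the alternatives reuse the same libraries. The kept direction is therefore not independent evidence. Without the block, Edn1 between tissues on chow in capillary-like cells ran from -0.034 (without adipose on chow of run B) to 2.41 with 1 library left out, against 1.17; the cause of the reversal was not tested. The class with the highest median was unchanged for 7 of 7 detected members, except with uncorrected runs, where Edn1 was highest in arterial-like cells.

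Depth limits run A most: capillary-like sums there came from 34 to 150 cells. Class names were rebuilt.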

Other observations

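Ednrb was also present outside the endothelium. In macrophage-like cells of run B it stood at 261 CPM in mesentery on chow, 363 CPM in adipose tissue on chow, 83.4 CPM in mesentery on high-fat diet and 128 CPM in adipose tissue on high-fat diet, from 86, 26, 149 and 594 cells. Nos3 in the same sums was at 0 to 4.36 CPM. Run A held under 20 macrophage-like cells in each library, so that these values have no replicate and no test. Ednra, the type A receptor, chosen after its values were seen, was at 0 to 1.48 CPM in endothelial cells and at 72.2 to 195 CPM in mural-like cells.

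Nos2, the inducible synthase, also chosen after its values were seen, gave 2369 UMIs in endothelial cells, of which 1551 were in capillary-like cells. Its capillary-like level was 3.86 to 12.1 CPM in run A and 34.8 to 56.6 CPM in run B, with no overlap between the runs. The capillary-like sums of run A held 82706 to 258961 UMIs of all genes. The run A levels, and with them the gap between the runs, thus rest on few Nos2 UMIs.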
